A study of Bos grunniens and Bos grunniens x Bos taurus with 6 samples.

Results

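AAMDC, TXNDC9 and PHOSPHO2 are 3 protein-coding genes whose reads were divided among their transcripts differently in yak and in cattle-yak muscle. They were chosen for that difference out of 31044 genes, and all rows of the deposited table with the gene identifiers ENSBGRG00000019457 (AAMDC), ENSBGRG00000026833 (TXNDC9) and ENSBGRG00000006691 (PHOSPHO2) were taken. These are 58 of 179856 transcripts, of which 29 had 10 or more reads pooled over the 6 libraries and are described here. The samples are of a back muscle, the longissimus dorsi, as 3 yak samples (yak 1 to 3, labelled Bos grunniens) and 3 cattle-yak samples (cattle-yak 1 to 3, labelled as the cross of Bos grunniens and Bos taurus). Whole cDNA molecules were read by nanopore sequencing, so that a read is assigned to a transcript. The age, the sex, the direction and generation of the cross, and whether the samples came from separate animals are not stated in the labels, so p-values and errors reflect only how these 6 samples vary, which may be technical. Because the 3 genes were selected from the yak against cattle-yak contrast, their own values in it are given as a description, with no test.

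AAMDC encodes a small protein built on a single Mth938 domain, and its name comes from a role in adipogenesis, the formation of fat cells. TXNDC9, also known as phosducin-like protein 3, has a thioredoxin-like fold and binds the cytosolic chaperonin CCT, the barrel in which newly made actin and tubulin fold. PHOSPHO2 belongs to the haloacid dehalogenase (HAD) family of phosphatases and removes the phosphate from pyridoxal 5'-phosphate, the active form of vitamin B6, which is the cofactor of muscle glycogen phosphorylase and of aminotransferases. A gene can give several transcripts through different start sites, splicing and ends, and the share of its reads in each transcript is called transcript usage. The deposited table names for most transcripts the protein and species of a matching database entry, which is called the species label here. The labels do not say how that entry was picked.

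The 6 libraries held between 2350851 and 2769106 counts, 7265965 in yak and 7518099 in cattle-yak. Of 12 skeletal muscle markers, 10 took a name in the table (ACTA1 and MYH7 did not), and their summed level was 150620 to 159385 CPM (counts scaled to the library size) in yak and 130985 to 143113 CPM in cattle-yak. Markers of other cells were far lower, and some of them moved with the groups. The summed Schwann cell markers (5 of 6 named) were at 104 to 135 CPM in yak and 219 to 306 in cattle-yak. The macrophage markers (7 of 7) stood at 18.0 to 41.5 against 43.4 to 109 CPM, the fibroblast markers (6 of 6) at 426 to 538 against 221 to 425 CPM and the adipocyte markers (4 of 7) at 141 to 181 against 79.9 to 124 CPM. Most of the adipocyte sum was LPL, at 120 to 161 against 54.7 to 116 CPM. The fibroblast ranges nearly touched, at 425.6 CPM in the lowest yak library and 424.8 CPM in the highest cattle-yak library. DCN, the highest fibroblast marker, overlapped (216 ± 38.4 CPM in yak against 226 ± 67.9 in cattle-yak, SD), as did COL1A1 and PDGFRA. COL1A2, COL3A1 and LUM were lower in cattle-yak without overlap. The endothelial markers (7 of 7) overlapped, at 28.7 to 38.3 against 33.4 to 68.1 CPM. The erythroid markers (2 of 5) stood at 2.65 to 24.8 CPM in yak against 0.36 to 2.33 CPM in cattle-yak. These ranges stay apart through scaling alone, since yak 3 and cattle-yak 1 each held 5 HBA reads and 1 HBB read. The names HBA and HBB rest on 37.3% and 17.4% of their genes' reads, and neither gene had enough reads for the gene test used below. No named marker was at 0 in all libraries, and the part of these cells in the results below was not tested. CPM values are scaled with edgeR's trimmed mean of M values (TMM) throughout.

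In AAMDC the total hardly differed, while 4 described transcripts without a single yak read held 43.4% ± 0.58 of the gene's reads in cattle-yak (SD, n = 3). The gene had 220, 266 and 212 reads in yak 1 to 3 and 203, 241 and 266 in cattle-yak 1 to 3. Its level was 101 ± 11.2 CPM in yak against 89.8 ± 9.56 CPM in cattle-yak (SD, n = 3 each), with overlapping libraries and a log2 fold change of -0.17 ± 0.17 (edgeR, SE). In bulk muscle, a change in the number of expressing cells and a change in RNA per cell cannot be told apart.

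The leading AAMDC transcript of yak was TALONT000926814, with the species label Bos mutus, the wild yak. It had 138, 183 and 142 reads in the yak libraries and 78, 84 and 98 in the cattle-yak ones. Its share of the gene's reads was 66.2% ± 3.12 in yak against 36.7% ± 1.79 in cattle-yak (SD, n = 3 each), and its level went from 66.5 ± 9.36 to 33.1 ± 2.67 CPM. Every cattle-yak library lay below every yak library. The next one, TALONT000926805, labelled Oryx dammah, had 50, 51 and 55 reads against 18, 34 and 21, and its share went from 22.6% ± 3.39 to 10.3% ± 3.34, again without overlap.

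TALONT000926808, with the species label Bos taurus, had no read in any yak library and 63, 69 and 78 reads in cattle-yak. It held 31.0%, 28.6% and 29.3% of the gene's reads there, the narrowest spread of the 4 leading AAMDC transcripts in cattle-yak. Its level was at least 61.9-fold higher in cattle-yak when 3 counts over the yak group are taken as the floor, and 0 of 698 AAMDC reads in yak allows a share of up to 0.43%. TALONT000926823, labelled Oryx dammah, showed the same pattern, with no yak read and 12, 23 and 28 reads in cattle-yak, or 8.66% ± 2.43 of the gene. TALONT000926806 (Bos taurus) had 9, 9 and 7 reads and TALONT000926899 (Oryx dammah) 5, 2 and 3 reads in cattle-yak, with none in yak. These 4 transcripts together held 43.8%, 42.7% and 43.6% of AAMDC reads in cattle-yak 1 to 3. With 4 further AAMDC transcripts of fewer than 10 pooled reads that also had no yak read, the shares were 44.8%, 44.8% and 48.1%.

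The reads of the 4 leading AAMDC transcripts can be set against each other. In cattle-yak, TALONT000926814 had 1.24, 1.22 and 1.26 times the reads of TALONT000926808 in libraries 1 to 3. Over the pooled reads, TALONT000926814 had 2.97 times the reads of TALONT000926805 in yak and 3.56 times in cattle-yak, and TALONT000926808 had 3.33 times those of TALONT000926823 in cattle-yak. TALONT000926814 and TALONT000926808 added together held 66.2% ± 3.12 of AAMDC reads in yak and 66.4% ± 2.99 in cattle-yak, and TALONT000926805 with TALONT000926823 22.6% ± 3.39 and 19.0% ± 4.46. Both sums overlapped between the groups, which the single transcripts did not. The pairs were picked after their values were seen.

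**Figure D1:**
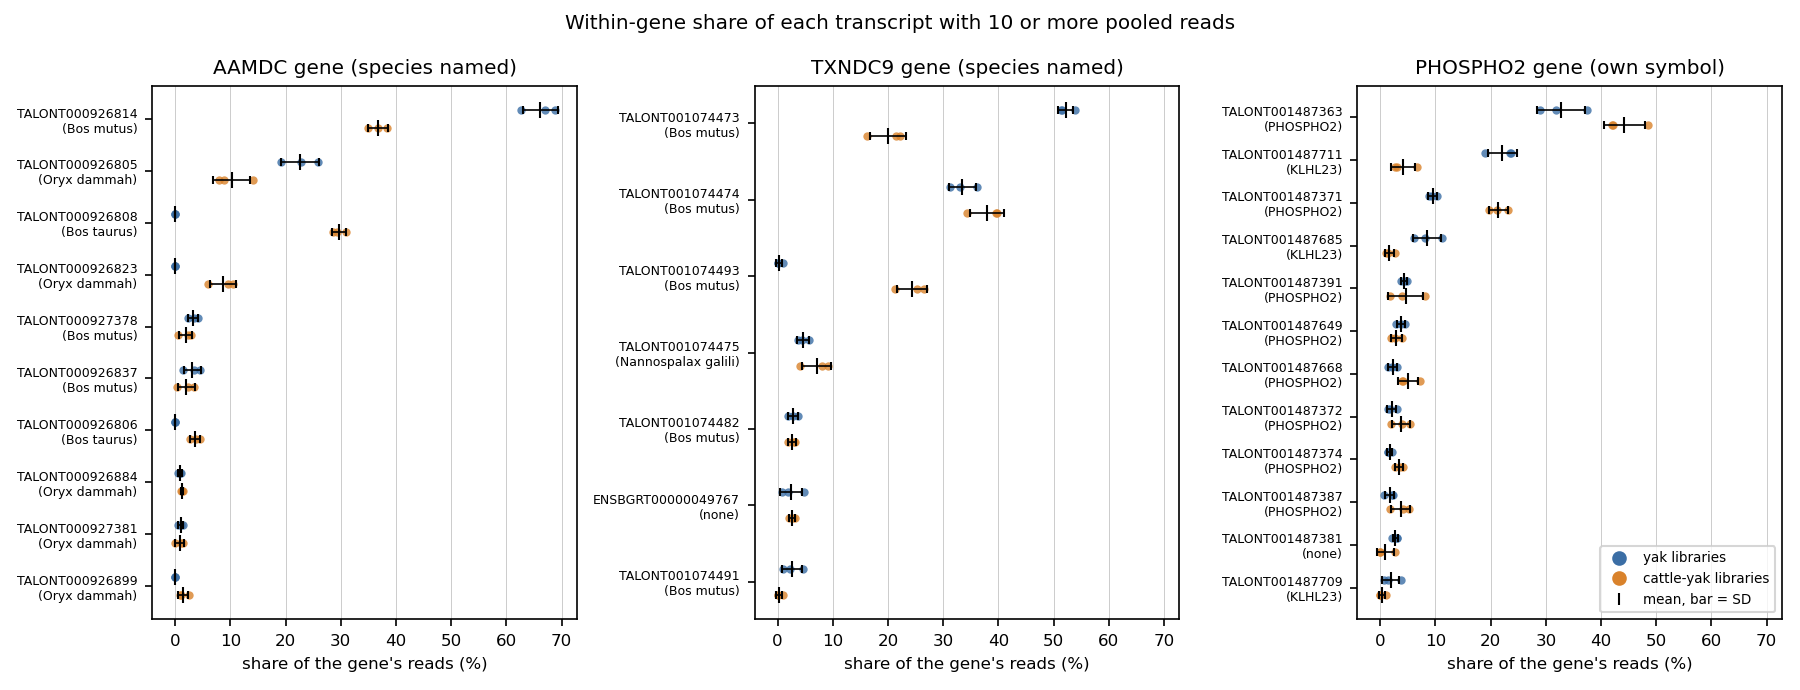
Share of the gene's reads (x axis, percent) of each transcript with 10 or more pooled reads in AAMDC, TXNDC9 and PHOSPHO2, with the species label or the transcript's own symbol in brackets. Points are the 3 yak and 3 cattle-yak libraries, ticks their mean and bars the SD. In AAMDC, TALONT000926808 is at 0 in all yak libraries and at 28.6% or more in all cattle-yak libraries.

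The other 4 described AAMDC transcripts overlapped between the groups and held at most 3.28% ± 0.87 of reads in a group. By species label, Bos mutus transcripts held 74.1% ± 2.98 of AAMDC reads in yak and 40.9% ± 2.16 in cattle-yak. Bos taurus transcripts held 36.5%, 34.0% and 34.6% in the cattle-yak libraries and no yak read, over 4 transcripts and 248 cattle-yak reads. Oryx dammah transcripts held 25.4% ± 2.53 and 23.8% ± 3.37, which overlapped. The only AAMDC transcript with a reference identifier of the yak annotation, ENSBGRT00000035842, carried the Bos taurus label and had 2, 3 and 4 reads in cattle-yak and none in yak. With 9 reads it lay just outside the limit for description, as did TALONT000926809 (Bos mutus), and TALONT000926899 with 10 lay just inside. The number of equally used transcripts that would give the same evenness (the inverse of the summed squared shares) was 2.04 ± 0.16 in yak and 4.08 ± 0.21 in cattle-yak.

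**Figure D2:**
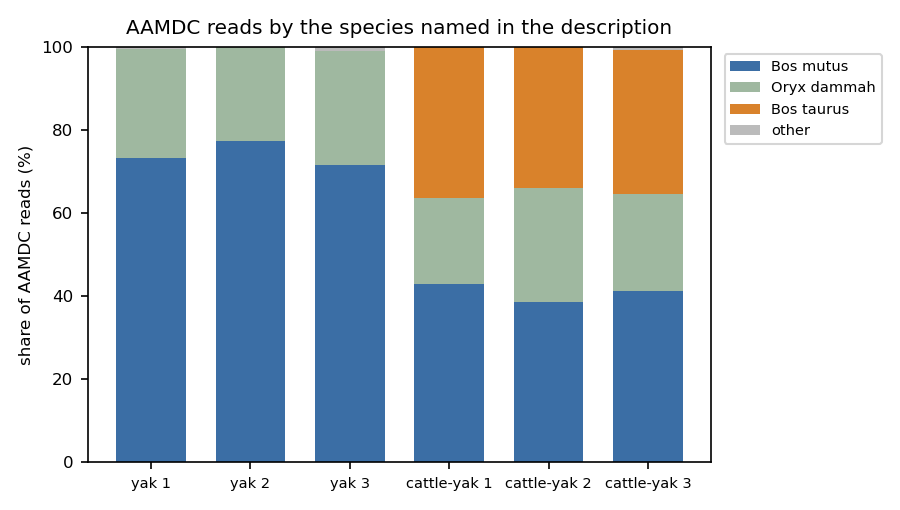
Share of AAMDC reads (y axis, percent) by the species label of the transcript, as 1 stacked bar per library. Bos taurus transcripts appear in the 3 cattle-yak bars, at 34.0% to 36.5%, and in no yak bar.

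In TXNDC9 a transcript almost absent from yak held 24.3% ± 2.77 of the reads in cattle-yak, and both it and the transcript it stood beside carried the same species label. The gene had 106, 136 and 111 reads in the yak libraries and 99, 98 and 111 in the cattle-yak ones. Its level was 51.1 ± 6.33 CPM in yak against 39.0 ± 0.84 CPM in cattle-yak (SD, n = 3 each, log2 fold change -0.39 ± 0.18, SE). The highest cattle-yak library, at 39.9 CPM, was below the lowest yak library, at 46.1.

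TALONT001074473, labelled Bos mutus, was the leading TXNDC9 transcript of yak, with 57, 70 and 57 reads in the yak libraries and 22, 21 and 18 in the cattle-yak ones. Its share was 52.2% ± 1.37 in yak and 20.0% ± 3.26 in cattle-yak, and its level went from 26.5 ± 2.70 to 7.81 ± 1.16 CPM (log2 fold change -1.76 ± 0.27, SE). TALONT001074493, also labelled Bos mutus, had 0, 0 and 1 read in yak and 21, 26 and 28 in cattle-yak. It held 24.3% ± 2.77 of the reads in cattle-yak against 0.30% ± 0.52 in yak. TALONT001074474, the third with this label, had 33, 45 and 40 reads in the yak libraries and 34, 39 and 44 in the cattle-yak ones, or 33.4% ± 2.47 and 37.9% ± 3.10, with overlapping libraries. It was thus the leading transcript of cattle-yak without a higher level there (17.0 ± 2.29 against 14.9 ± 1.54 CPM).

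TALONT001074473 and TALONT001074493 together held 52.5% ± 1.17 in yak and 44.3% ± 3.34 in cattle-yak, which did not overlap. In cattle-yak, TALONT001074493 had 0.955, 1.24 and 1.56 times the reads of TALONT001074473. Transcripts labelled Bos mutus as a whole held 93.0% ± 2.95 of TXNDC9 reads in yak and 89.6% ± 3.02 in cattle-yak, with overlap, and no TXNDC9 transcript carried the Bos taurus label. Of the other 4 described transcripts, TALONT001074491 had 1, 3 and 5 reads against 0, 0 and 1, with a lower share in every cattle-yak library, and 3 overlapped. The shares of TALONT001074491 stay apart through the gene's totals alone. Yak 1 and cattle-yak 3 each held 1 read of it, or 0.943% of 106 reads and 0.901% of 111. At the limit for description, TALONT001074491 had 10 pooled reads and TALONT001074524 had 9 (5 in yak and 4 in cattle-yak). The evenness measure was 2.57 ± 0.06 transcripts in yak and 3.99 ± 0.45 in cattle-yak.

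In PHOSPHO2 the transcripts that carry the name of the neighbouring gene KLHL23 held a far lower share in cattle-yak, and shares also differed among the PHOSPHO2-named ones. The gene had 136, 226 and 135 reads in the yak libraries and 76, 99 and 112 in the cattle-yak ones, or 71.8 ± 21.6 and 36.3 ± 5.90 CPM (SD, n = 3 each), and the groups did not overlap. The log2 fold change was -0.99 ± 0.23 (SE), and -0.73 without yak 2, whose level of 96.7 CPM was above the other 2 yak libraries (59.1 and 59.6). Yak 2 was also the highest library for AAMDC and TXNDC9.

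KLHL23-named transcripts of the PHOSPHO2 gene had 49, 74 and 54 reads in the yak libraries and 6, 5 and 6 in the cattle-yak ones. They held 36.3% ± 3.63 of the gene's reads in yak and 6.10% ± 1.56 in cattle-yak, and their level was 25.6 ± 5.41 against 2.15 ± 0.18 CPM. PHOSPHO2-named transcripts of the same gene had 84, 143 and 76 reads against 68, 93 and 103, and their level of 43.8 ± 15.2 against 33.3 ± 6.04 CPM overlapped between the groups. Their share nevertheless went from 60.4% ± 3.67 to 91.8% ± 2.24. KLHL23 encodes a BTB-kelch protein, a class of adaptors of cullin ubiquitin ligases. In the human annotation a readthrough transcript joins PHOSPHO2 and KLHL23. Whether the KLHL23-named transcripts hold the PHOSPHO2 coding sequence was not analysed here, since the table gives no transcript structure.

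**Figure D3:**
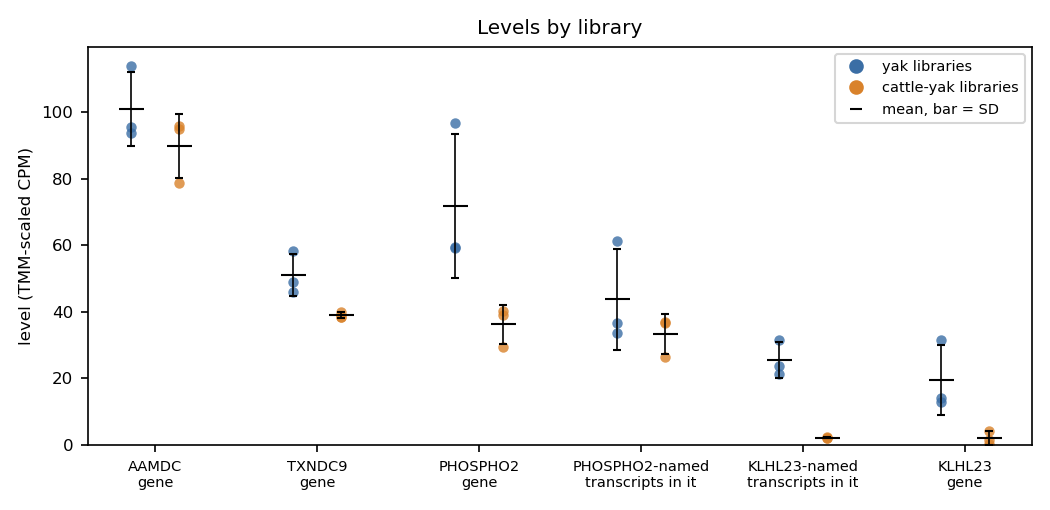
Level by library (y axis, TMM-scaled CPM) of the 3 genes, of the PHOSPHO2-named and KLHL23-named transcripts within the PHOSPHO2 gene, and of the separate KLHL23 gene. Points are libraries, lines the mean and bars the SD. KLHL23-named transcripts sit between 21.3 and 31.7 CPM in yak and at 2.33 CPM or less in cattle-yak, while the PHOSPHO2-named ones overlap.

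TALONT001487711, named KLHL23, had 32, 43 and 32 reads in the yak libraries and 5, 3 and 3 in the cattle-yak ones, and its share went from 22.1% ± 2.65 to 4.10% ± 2.16. TALONT001487685, named KLHL23 as well, had 11, 14 and 15 reads against 1, 1 and 3. Both carried the species label Orcinus orca, and neither overlapped between the groups. The leading PHOSPHO2-named transcript, TALONT001487363 (Bos mutus), had 51, 72 and 39 reads against 32, 48 and 47. Its share was 32.7% ± 4.37 in yak and 44.2% ± 3.72 in cattle-yak, while its level of 23.3 ± 6.78 against 16.2 ± 3.57 CPM overlapped. TALONT001487371 (Bos mutus) had 12, 21 and 14 reads against 15, 21 and 26, and its share was 9.50% ± 0.79 in yak and 21.4% ± 1.75 in cattle-yak. Its level of 6.74 ± 1.89 against 7.87 ± 1.86 CPM overlapped (log2 fold change 0.22 ± 0.36, SE). TALONT001487668 held 2.26% ± 0.81 in yak and 5.04% ± 1.82 in cattle-yak, and TALONT001487374 held 1.72% ± 0.43 and 3.41% ± 0.72. Neither overlapped in share, though both did in level and among PHOSPHO2-named reads alone.

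Among PHOSPHO2-named reads alone, TALONT001487371 held 14.3%, 14.7% and 18.4% in yak and 22.1%, 22.6% and 25.2% in cattle-yak, so its groups still did not overlap. TALONT001487649 held 6.11% ± 1.19 of them in yak and 3.16% ± 1.15 in cattle-yak, also without overlap. TALONT001487363 held 54.1% ± 5.73 and 48.1% ± 3.12 of them, with overlap. The 8 PHOSPHO2-named described transcripts all carried the Bos mutus label, and none of the 26 transcripts of the gene had a reference identifier. At the limit for description, TALONT001487709 (KLHL23) had 9 yak reads and 1 cattle-yak read, and TALONT001487638 (PHOSPHO2), with 4 and 3, lay outside. The evenness measure moved in the direction opposite to the other genes, from 5.61 ± 0.87 transcripts in yak to 3.94 ± 0.48 in cattle-yak.

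Over the 3 genes, 9 of the 29 described transcripts had a higher share in every cattle-yak library than in any yak library, 6 had a lower one, and 14 overlapped. Over all 54103 such transcripts in genes with at least 2 of them, the shares were 11.0% higher and 9.24% lower. Of the 29, 11 passed the low count filter of the edgeR transcript test, in which 9.62% of 15805 transcripts were called higher and 8.86% lower. Since the genes were chosen on this contrast, nothing is read from these counts. Transcripts with a reference identifier held 0.639% of AAMDC reads, 2.42% of TXNDC9 reads and none of PHOSPHO2 reads, against 24.0% of all counts in the table.

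Transcripts seen in 1 group only were uneven across the whole table. Among 64410 transcripts with 10 or more pooled reads, 755 (1.17%) had no yak read and 160 (0.248%) had no cattle-yak read. AAMDC held 4 of the former among its 10 described transcripts, TXNDC9 and PHOSPHO2 none, and none of the 29 lacked cattle-yak reads. The share of such transcripts differed between species labels. Of 9211 transcripts labelled Bos taurus, 109 (1.18%) had no yak read, and of 10166 labelled Bos mutus, 124 (1.22%). For other labels counted it ran from 0.181% (Capra hircus) to 1.91% (Bos indicus), 2.29% (Muntiacus reevesi) and 3.04% (Babesia ovata). AAMDC, with all 4 of its Bos taurus transcripts lacking yak reads, and TXNDC9, where the gaining transcript was labelled Bos mutus, were thus unlike in this label.

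The largest gain of any transcript in share was 29.7 percentage points in AAMDC, 24.0 in TXNDC9 and 11.9 in PHOSPHO2. These ranked 36, 80 and 556 among 5637 genes with 100 or more pooled reads, whose median was 3.44 points and whose 95th percentile was 15.7. No minimum of 2 described transcripts was set here, so genes with only 1 are ranked too. As the 3 genes were chosen on this contrast, their ranks are description only. Nearest to AAMDC in the shares of this transcript over the 6 libraries, by root mean square difference, were PNPT1 (3.70 points away), POLR2F (4.07) and TMEM123 (4.50). The TMEM123 transcript, labelled Bos taurus, had no yak read either and held 25.7% ± 7.32 in cattle-yak. Nearest to TXNDC9 were RNF25 (3.69), NARS2 (4.40) and LSG1 (4.95), each with 203 or fewer pooled reads. Nearest to PHOSPHO2 were MFN1 (1.50), CDK11B (1.99) and SNX2 (2.07), the MFN1 transcript going from 11.3% ± 0.80 to 21.4% ± 1.81. Such likeness rests on the difference between the 2 groups and says nothing of shared function.

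**Figure D4:**
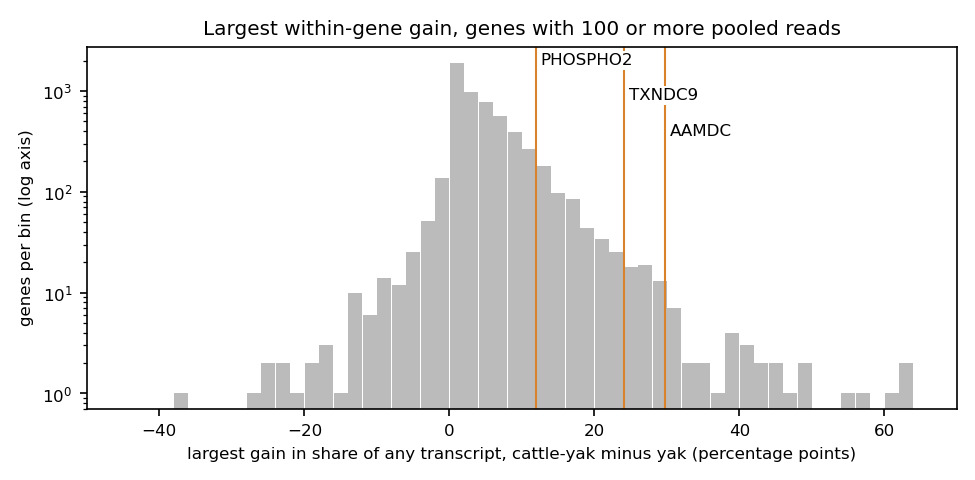
Number of genes (y axis, log scale) by the largest gain in share of any described transcript, cattle-yak minus yak in percentage points, over 5637 genes with 100 or more pooled reads. Lines mark PHOSPHO2 at 11.9, TXNDC9 at 24.0 and AAMDC at 29.7 points. In genes below 0, each described transcript held a lower share in cattle-yak.

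Neighbouring genes were compared with edgeR's quasi-likelihood test over all 7504 genes, in which 6.45% were called higher and 6.18% lower. The order of genes is that of the RefSeq annotation of the yak assembly Bosgru_T2T1.0. Next to PHOSPHO2 lies KLHL23. The separate KLHL23 gene had 30, 74 and 32 reads in the yak libraries and 1, 4 and 12 in the cattle-yak ones, without overlap, and fell by 3.17 ± 0.60 on the log2 scale (SE, edgeR adjusted p = 0.00757). Its log2 fold change was -4.27 without cattle-yak 3, -2.66 without yak 2 and -2.69 without cattle-yak 1. It moved in the same direction as the KLHL23-named transcripts within the PHOSPHO2 gene. How reads were divided between the 2 identifiers was not tested. The other 6 tested genes of the list around PHOSPHO2 did not pass, among them KLHL41, a kelch protein of the sarcomere, at -0.45 ± 0.16 (edgeR adjusted p = 0.0767, and 0.0431 with no low count filter), the RNA-binding protein gene SSB at -0.17 ± 0.15 (0.511) and UBR3 at 0.20 ± 0.19 (0.533). Transcript usage was tested in 2 of the list's genes and called in none of them, where 8.29% of 1821 genes were called over the table.

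Of the list around AAMDC, 4 genes were tested. PAK1, a kinase downstream of small GTPases and 4 places from AAMDC, fell from 29.6 ± 1.17 to 9.97 ± 2.95 CPM (log2 fold change -1.56 ± 0.27, edgeR adjusted p = 0.00204). The adjacent chromatin remodeller gene RSF1 (0.44 ± 0.23, edgeR adjusted p = 0.242) and CLNS1A (-0.43 ± 0.24, 0.267) did not pass. NDUFC2, of respiratory complex I and 5 places from AAMDC, did not pass as a whole (-0.44 ± 0.18, edgeR adjusted p = 0.137; 0.0251 without cattle-yak 3), but its usage was called (edgeR adjusted p = 2.15e-08). Its gaining transcript held 55.8%, 45.1% and 42.2% in cattle-yak and at most 0.8% in yak. The name NDUFC2 rests on 25.8% of the gene's reads. It was the only gene of this list with enough transcripts for the usage test.

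Of the list around TXNDC9, 5 genes were tested. The adjacent EIF5B, a translation initiation factor, had 382, 479 and 403 reads in the yak libraries and 688, 654 and 721 in the cattle-yak ones and rose by 0.51 ± 0.15 on the log2 scale (edgeR adjusted p = 0.0424). That call was lost without each of the 6 libraries in turn (adjusted p up to 0.176), with DESeq2 (0.0619) and with no low count filter (0.34). The mitochondrial ribosomal protein gene MRPL30 (-0.30 ± 0.18, edgeR adjusted p = 0.312), COA5 (-0.30 ± 0.16, 0.256) and UNC50 (0.32 ± 0.47, 0.702) did not pass. COA5 and UNC50 are not among the 8 nearest genes on either side of TXNDC9 in the RefSeq order. Usage was tested in EIF5B and MRPL30 and called in neither.

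**Figure D5:**
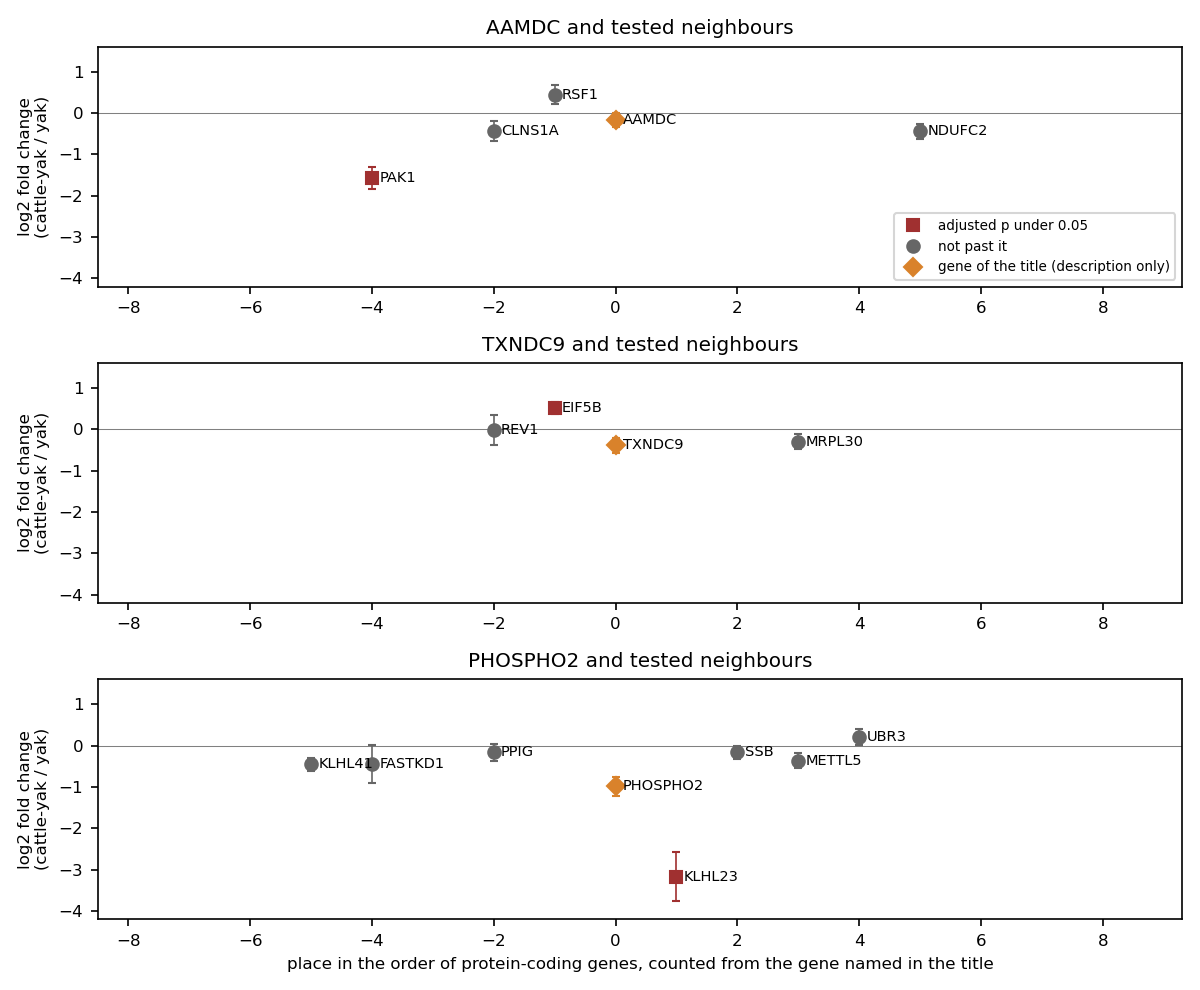
Log2 fold change of gene totals (y axis, cattle-yak over yak, bars = SE) for AAMDC, TXNDC9 and PHOSPHO2 and neighbours, by place in the order of protein-coding genes (x axis). Neighbours drawn are the tested genes of the fixed neighbour lists that lie within 8 places. PDCL3, in no such list, is not drawn. Squares are genes past an adjusted p of 0.05: PAK1 (-1.56), EIF5B (0.51) and KLHL23 (-3.17).

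Partners and relatives of the 3 genes were read from fixed lists. Of 19 tested genes of the thioredoxin fold, none rose or fell, and their median log2 fold change was -0.10, against 0.02 over all genes. TXN, the cytosolic thioredoxin, differed by -0.40 ± 0.16 on the log2 scale (edgeR adjusted p = 0.125). TXNIP, its inhibitor, differed by 0.51 ± 0.20 (edgeR adjusted p = 0.116) and passed without yak 2 (0.0375) or when scaled by library size only (0.0418). P4HB (0.12 ± 0.16, edgeR adjusted p = 0.676) and TXNL1 (-0.22 ± 0.19, 0.493) did not pass. Usage was called in 151 of 1821 genes overall (8.29%) and in 2 of 10 genes of the list, TXNL1 (edgeR adjusted p = 0.0138) and the spliceosome protein gene TXNL4A (0.022). TXNL1 was not called when yak 2, yak 3 or cattle-yak 3 was left out (adjusted p up to 0.185) nor TXNL4A when any of the 6 libraries was (up to 0.175). Their most gaining transcripts gained 8.96 and 7.38 points, and both calls were also lost by the Simes method (0.271 and 0.121).

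Of 20 tested genes of the chaperonin CCT, which TXNDC9 binds, and of its cofactors, 1 fell and none rose, beside 6.18% lower and 6.45% higher over all genes (median log2 fold change 0.02). The one that fell was the tubulin cofactor gene TBCE, from 24.3 ± 3.06 to 11.7 ± 2.65 CPM (-1.05 ± 0.26, edgeR adjusted p = 0.0189). It did not pass when yak 2, yak 3 or cattle-yak 2 was left out (up to 0.0768). The chaperonin subunit gene CCT2 had 292, 307 and 303 reads in the yak libraries and 520, 437 and 454 in the cattle-yak ones (0.45 ± 0.16, edgeR adjusted p = 0.0742), and passed when scaled by library size only (0.0239). The prefoldin genes PFDN1 (0.24 ± 0.17, edgeR adjusted p = 0.38) and VBP1 (-0.26 ± 0.16, 0.333) did not pass. Usage was called in CCT2 alone of 12 genes (edgeR adjusted p = 0.0471). Leaving out any library but cattle-yak 1 ended that call (up to 0.232), as did library size scaling (0.0595), a minimum share of 10% (0.0891) and the Simes method (0.708).

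Around PHOSPHO2, 9 genes of vitamin B6 metabolism and of its enzymes were tested, of which 2 fell and none rose, beside the same 6.18% and 6.45% (median log2 fold change -0.46). GOT2, the mitochondrial aspartate aminotransferase, fell from 795 ± 88.6 to 434 ± 114 CPM (-0.87 ± 0.20, edgeR adjusted p = 0.0117). ALAS1, which starts haem synthesis, fell by 0.88 ± 0.22 on the log2 scale (edgeR adjusted p = 0.0196). It did not pass when yak 3, cattle-yak 2 or cattle-yak 3 was left out (up to 0.0922) or when scaled by library size only (0.0535). PYGM, muscle glycogen phosphorylase, differed by -0.46 ± 0.18 on the log2 scale (edgeR adjusted p = 0.119), and passed without cattle-yak 3 (0.0235) or with no low count filter (0.0327). Its transcript usage was called (edgeR adjusted p = 0.00562), the leading loss being from 59.8% ± 1.48 to 43.4% ± 4.64 of its reads. The cytosolic aminotransferase gene GOT1 (-0.64 ± 0.28, edgeR adjusted p = 0.17, and 0.0068 with no low count filter) and PLPBP, of a pyridoxal phosphate binding protein (-0.25 ± 0.23, 0.501), did not pass.

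Of 13 tested HAD phosphatases, the family of PHOSPHO2, 2 fell and none rose, where 6.18% of all genes were called lower (median log2 fold change 0.05). PSPH, the last enzyme of serine synthesis, had 31, 35 and 24 reads in the yak libraries and 3, 4 and 5 in the cattle-yak ones and fell by 3.06 ± 0.39 on the log2 scale (edgeR adjusted p = 0.000333). NT5C3A, a pyrimidine nucleotidase, fell from 52.9 ± 1.37 to 30.9 ± 6.06 CPM (edgeR adjusted p = 0.0214). Without yak 1, yak 2, yak 3 or cattle-yak 2 it did not pass (up to 0.0722), nor when scaled by library size only (0.0534). PHOSPHO1, the closest relative, which acts in bone mineralisation, had 19, 16 and 16 reads against 23, 18 and 24 (log2 fold change 0.15 ± 0.31, edgeR adjusted p = 0.792). PGP, HDHD2 and MDP1 did not pass (edgeR adjusted p from 0.313 to 0.958).

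For AAMDC, only 3 of 18 adipogenesis genes had enough reads for the test, and none passed. LPL, the lipoprotein lipase, differed by -0.74 ± 0.24 on the log2 scale (edgeR adjusted p = 0.0668) and passed without cattle-yak 3 (0.021). FABP4, of fat cells, differed by -1.03 ± 0.66 (edgeR adjusted p = 0.36) and passed without cattle-yak 2 (0.00208). The desaturase gene SCD differed by -1.25 ± 0.42 (edgeR adjusted p = 0.0676) and passed without yak 2 (0.0495) or cattle-yak 1 (0.0129). With no low count filter the 3 genes passed as well (edgeR adjusted p = 0.00192, 0.0162 and 0.00303). That fit called 641 genes higher and 776 lower over the table, against 484 and 464 with the filter. LPL, FABP4 and SCD all had lower mean levels in cattle-yak, as did the summed adipocyte markers, which include LPL and FABP4. That sum is mostly LPL, at 120 to 161 CPM in yak and 54.7 to 116 CPM in cattle-yak, and so largely repeats it. Of the other named adipocyte markers, CIDEC was lower as well (1.46 ± 1.03 against 0.24 ± 0.42 CPM). CIDEA went the other way, from 5.08 ± 1.78 to 6.02 ± 2.19 CPM, with overlap. Among the named adipogenesis genes with too few reads for the test, EBF1 was higher in cattle-yak without overlap. It had 1, 1 and 1 reads in the yak libraries and 12, 10 and 4 in the cattle-yak ones. CEBPA, SREBF1, KLF5 and ZNF423 also had higher means in cattle-yak, and DLK1 and THRSP lower ones, all with overlap. The AAMDC total overlapped between the groups.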

How the data were processed

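Per the labels' protocols, 1 nanopore cDNA-PCR library was made from total RNA of each sample. Fastp, minimap2 and GSNAP are listed, per the submitters' processing notes. Build and counter: not given in the sources used here. Deposited by the authors were read counts per transcript, and CPM scaled to each library's total, which matched the counts within 0.005. Counts were used, and 132 lines without values were left out. Reads without a gene identifier (at most 0.0025% of a library) stayed out of gene sums. A gene took the symbol with at least 50% of its symbol-bearing and 2% of all reads. The members and lists were chosen with earlier results of these data known. Tests used edgeR 4.0.16 in R 4.3.3 (filterByExpr, TMM, robust quasi-likelihood, Benjamini-Hochberg), checked on simulated data, and diffSpliceDGE on transcripts with at least 5% of their gene's counts. DESeq2 1.42.0 was an alternative. SE is the log2 fold change over the square root of F. Named genes were all transcripts of the 3 genes with 10 or more pooled reads, up to 4 called and 3 other genes per list, and the 3 nearest genes in share. PHOSPHO1, TXN, TXNL4A, PDXK and PDCL3 were added after their values were seen. PCR reads carry no molecular identifiers and are not independent, so floors and intervals cover counting error only. Tables and figures used Python 3.11.15, pandas 2.3.3 and matplotlib 3.10.9.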

Additional observations from a re-analysis of the deposited data

How the results depend on the processing

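The gain in share was 29.0 to 30.2 points without 1 library in AAMDC (29.7 in all) and 22.9 to 25.6 in TXNDC9 (24.0 in all), and moved by less than the spread between replicates with reads pooled or with the other denominators tried. In PHOSPHO2 it was 11.0 to 12.7 points without 1 library (11.9 in all) and 7.50 with PHOSPHO2-named transcripts alone, a denominator that leaves out the KLHL23-named reads. Genes with changed usage were 58 by the Simes method, 294 when no minimum share was set, 81 at a minimum of 10%, and 70 to 145 without 1 library, against 151. Leaving out yak 1 gave 76, yak 2 gave 91, yak 3 gave 70 and cattle-yak 2 gave 71. Changed genes were 948, and 544 to 986 without 1 library (616 without yak 2, 544 without yak 3). Genes called among the lists were 8 of 80 tested, where 12.6% of all 7504 genes were called. Without 1 library they were 6 to 11. Unfiltered genes gave 1417 changed genes (641 higher and 776 lower) and DESeq2 769. Without the filter the log2 fold change went from -0.17 to -0.29 in AAMDC, from -0.39 to -0.51 in TXNDC9 and from 0.51 to 0.39 in TXNIP. Library size alone moved the median log2 fold change from 0.024 to 0.171 and the split of called genes from 484 higher and 464 lower to 658 and 304, and of transcripts from 1520 and 1400 to 1879 and 1084. The replicate block gave 890 genes, 2595 transcripts and 117 usage genes, but same-numbered libraries did not deviate together (correlations -0.04, -0.02 and 0.02), so the numbers pair nothing. Of 374 values of named list genes, 311 kept direction and side of the threshold, 43 lost and 15 gained a call, and 5 turned direction, none of them called. With no low count filter these were P4HB (-0.0058) and HDHD2 (-0.085). Without 1 library, HDHD2 ran from -0.286 (without yak 1; -0.28 without cattle-yak 2) to 0.409 and UNC50 from -0.072 (without yak 3) to 0.815.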

Other observations

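PDXK, the kinase that makes pyridoxal 5'-phosphate, acts opposite to PHOSPHO2. It was named after its values were seen and had too few reads for the filter. It had 1, 0 and 0 reads in the yak libraries and 18, 6 and 12 in the cattle-yak ones, a ratio of scaled reads of 31.5 with an exact 95% counting interval of 5.3 to 1280. With no low count filter its log2 fold change was 4.47 ± 0.94 (SE, edgeR adjusted p = 0.000168). PDCL3, another phosducin-like partner of the chaperonin and 7 places from TXNDC9 in the gene order, had 215, 270 and 181 reads in the yak libraries and 257, 235 and 274 in the cattle-yak ones (0.01 ± 0.18, edgeR adjusted p = 0.982).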
